A study of Mus musculus with 20 samples.

Results

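Promoters that carried H3K4me3 in hematopoietic stem cells (HSC) but had no H3K27ac peak in either genotype are described here. They are the peaks of the WT H3K4me3 list that were under 5000 bp wide, lay within 1 kb of an annotated end of a protein-coding gene, overlapped an H3K4me3 peak of the KO list and overlapped no peak of the KO or the WT H3K27ac list. Of 15089 WT H3K4me3 peaks on chromosomes 1 to 19 and X, 9356 were promoter peaks of this kind, and 2776 of them (29.7%) lacked H3K27ac. The other 6580 overlapped H3K27ac and are called acetylated promoters below: 4282 overlapped a KO peak only, 2220 a peak of both lists and 78 a WT peak only. The unacetylated promoters lay at 3029 genes and the acetylated ones at 7766 (73.2% of the genes with a promoter peak), with 192 genes in both sets. The sets were thus chosen by the H3K4me3 and H3K27ac lists, whose values are given below as a description, with no test.

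The cells were sorted by flow cytometry from adult mice given poly(I:C), which induces the Mx1-Cre transgene. KO MycHet mice were Mx1-Cre+/-;mTORflox/flox;c-Myc+/flox, KO mice were Mx1-Cre+/-;mTORflox/flox, and WT control mice were Mx1-Cre-/-;mTORflox/flox, so that all 3 genotypes carried floxed Mtor alleles and had received poly(I:C). The Mx1 promoter responds to interferon and is active in other blood cells and organs as well as in HSC, so Mtor was not removed from HSC alone. ATAC-seq, which marks open chromatin, was available for 2 KO MycHet, 2 KO and 2 WT libraries of 50000 cells each, and ChIP-seq of H3K27ac, H3K4me3 and MYC for 1 KO and 1 WT library each; RNA-seq of 4 KO and 4 WT samples was not analysed here.

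H3K4me3, trimethylation of lysine 4 of histone H3, is deposited at the starts of active and of poised genes, above all where the DNA is rich in CpG. H3K27ac, acetylation of lysine 27 of the same histone, marks promoters and enhancers that are in use and cannot sit on a lysine that Polycomb has methylated. Developmental regulators that are silent in a tissue often keep H3K4me3 together with Polycomb's H3K27me3, a state called bivalent that was described first in embryonic stem cells. H3K27me3 was not analysed here.

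Upstream sequence of 4 unacetylated promoters and 1 acetylated promoter shows the range described further on: CpG-rich starts of HSC genes, a CpG-poor start of a myeloid gene, and the ETS motif that was rarer at the unacetylated promoters. The 250 bases before the annotated start (RefSeq, GRCm38.p6) are given 5′ to 3′ on the gene's strand. Capitals mark CpG in the first 3, namely Mllt3, a regulator of HSC maintenance, Fgd5, a gene used to mark mouse HSC, and Lyz2, the lysozyme gene of granulocytes and macrophages. Capitals mark the ETS motif CCGGAAG on either strand in the other 2, namely Fam102b, the unacetylated promoter with the highest H3K4me3 score, and Rps6, an acetylated promoter of a ribosomal protein gene that was chosen after its values were seen.
Mllt3 (chr4:88033408-88033657, minus strand): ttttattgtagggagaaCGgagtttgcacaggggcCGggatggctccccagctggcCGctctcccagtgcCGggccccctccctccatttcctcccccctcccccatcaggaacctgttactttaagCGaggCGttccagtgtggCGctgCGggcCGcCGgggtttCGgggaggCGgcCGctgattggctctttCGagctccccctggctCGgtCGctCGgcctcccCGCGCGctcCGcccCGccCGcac
Fgd5 (chr6:91978715-91978964, plus strand): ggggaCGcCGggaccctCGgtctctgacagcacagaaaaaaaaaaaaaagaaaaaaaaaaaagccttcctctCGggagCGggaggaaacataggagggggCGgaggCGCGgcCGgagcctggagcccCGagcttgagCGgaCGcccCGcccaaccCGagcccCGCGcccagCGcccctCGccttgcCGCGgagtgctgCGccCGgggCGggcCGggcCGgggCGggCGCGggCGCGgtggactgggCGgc
Lyz2 (chr10:117282273-117282522, minus strand): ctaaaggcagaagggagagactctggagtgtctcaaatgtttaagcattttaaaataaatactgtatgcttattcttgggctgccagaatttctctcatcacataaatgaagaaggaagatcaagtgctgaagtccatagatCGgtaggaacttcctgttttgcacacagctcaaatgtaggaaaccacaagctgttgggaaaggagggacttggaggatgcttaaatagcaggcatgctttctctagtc
Fam102b (chr3:109027608-109027857, minus strand): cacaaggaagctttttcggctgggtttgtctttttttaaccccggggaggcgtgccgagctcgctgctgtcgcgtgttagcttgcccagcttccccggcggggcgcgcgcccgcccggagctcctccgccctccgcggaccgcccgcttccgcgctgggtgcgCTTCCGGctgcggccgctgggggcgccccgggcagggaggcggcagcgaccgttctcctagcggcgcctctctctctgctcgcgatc
Rps6 (chr4:86857368-86857617, minus strand): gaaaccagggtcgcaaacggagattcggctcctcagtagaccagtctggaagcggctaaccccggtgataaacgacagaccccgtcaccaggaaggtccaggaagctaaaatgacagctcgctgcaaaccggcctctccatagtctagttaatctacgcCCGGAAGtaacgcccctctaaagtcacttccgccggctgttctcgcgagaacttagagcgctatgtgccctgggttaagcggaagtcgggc
The Mllt3 stretch held 23 CpG, the Fgd5 stretch 31 and the Lyz2 stretch 1. The observed number of CpG over the number its C and G content would give was 0.780 at Mllt3, 0.976 at Fgd5 and 0.0953 at Lyz2.

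Some facts about the lists bear on every result. The KO H3K27ac list held 20036 peaks with a median width of 1237 bp, the WT list 10078 with a median of 333 bp, and the absence of H3K27ac therefore rests mostly on the KO list. ATAC-seq lists held 47214 and 53722 peaks in KO MycHet, 19174 and 72149 in KO and 17303 and 66531 in WT, and the MYC lists 22086 in KO and 8774 in WT. Read depth is unknown, since peak lists carry no counts, and the labels do not say which libraries came from separate mice. Scores are the authors' peak caller values on a scale that is not stated; they are compared only between peaks of 1 list. At the lower end of Mtor, the targeted gene, all 5 WT lists had a peak and no KO or KO MycHet library did, with WT scores of 155.44 for H3K4me3 and 341.21 and 1418.45 in ATAC-seq. That peak is in neither set, since no KO peak overlaps it; Mtor counts among the acetylated genes through a peak at its other end. Of 45 HSC identity genes 33 had H3K4me3 in WT, against 1 of 12 T and NK cell markers, 2 of 11 B cell markers, 3 of 8 megakaryocyte markers, 4 of 11 myeloid markers, 5 of 10 erythroid markers and 7 of 12 stromal and endothelial markers.

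The unacetylated promoters were the weaker and narrower H3K4me3 peaks. Their WT width had a median of 1857 bp (middle 50% 1325 to 2428 bp), against 2756 bp (2197 to 3422 bp) at acetylated promoters, and their WT score a median of 209 against 443. These values are a description with no test, since the H3K4me3 lists chose the peaks. When all 9356 promoter peaks were split into 4 equal groups (quartiles) by WT score, 1620 of 2339 peaks (69.3%) in the lowest quartile were unacetylated, then 732 (31.3%), 328 (14.0%) and in the highest quartile 96 (4.10%). By width the shares were 61.1%, 31.2%, 16.7% and 9.71% from the narrowest to the widest quartile. The lowest score quartile, 50.06 to 241.97, thus held most of the set.

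**Figure D1:**
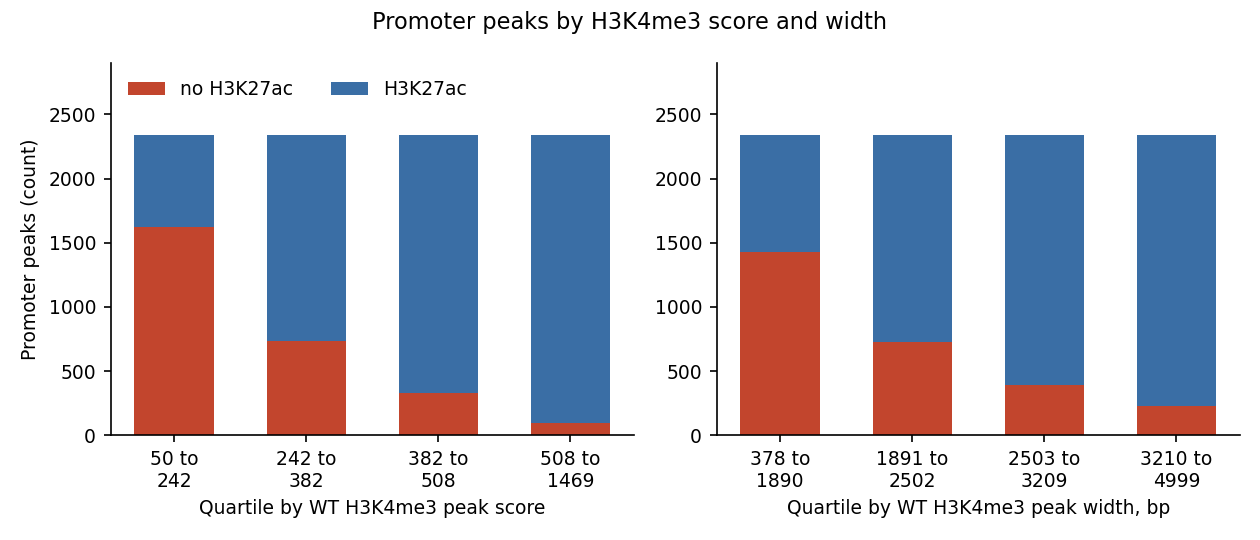
Number of promoter peaks (y axis) in each quartile of WT H3K4me3 peak score (left, deposited score) and of WT peak width in bp (right), with unacetylated peaks in red and acetylated peaks in blue. Unacetylated peaks number 1620 in the lowest score quartile and 96 in the highest.

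The strongest unacetylated promoters belonged to genes of varied function. Fam102b (ID 329739) scored 903.77 in the WT list over 2179 bp (chromosome 3, 109025503 to 109027681). Cog2, a subunit of the Golgi tethering complex COG, scored 829.87 with the nearest H3K27ac peak 70440 bp away. Inpp5d, the lipid phosphatase SHIP1 of blood cells, scored 757.3, and Ythdf2, a reader of methylated RNA, scored 726.18. The same list gave Gng2, a G protein subunit, 847.76 and the pair Cfap52 and Stx8, which share 1 peak, 828.43. Fam102b, with a neighbouring H3K27ac peak at 209 bp, and Inpp5d, at 2417 bp, were near acetylation that did not reach the H3K4me3 peak.

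Most unacetylated promoters were far from any H3K27ac. The nearest peak of either list lay at a median of 22404 bp (median's 95% CI 20713 to 24122 bp); it lay within 100 bp of 25 promoters, within 1 kb of 121 and within 10 kb of 801. Just outside the rule, the smallest overlaps of H3K27ac with H3K4me3 were 5 bp at Ppp1ca and Tbc1d10c, 29 bp at Utp3 and 30 bp at Itpkb. Just inside it, H3K27ac stopped 2 bp short of the peak at Carm1, an arginine methyltransferase, 9 bp short at Rasal3 and 26 bp short at Lrrc8c. At the width limit, Hmga2 (4955 bp) and Add3 (4932 bp) were the widest included, and Cd93 (5113 bp) and Gcnt2 (5190 bp) the narrowest unacetylated peaks left out. In all, 37 unacetylated promoter peaks were 5000 bp or wider. Away from the promoter, 980 of 2837 genes that had only unacetylated promoters (34.5%, 95% CI 32.8 to 36.3%) held an H3K27ac peak somewhere in the gene. Of 7574 genes with only acetylated promoters 7284 (96.2%) held one, a share that includes the promoter peak itself.

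Most listed developmental and HSC genes with a promoter peak had an unacetylated one, and few housekeeping genes did. Genes of 25 lists were counted; of all 10603 genes with a promoter peak 28.6% had an unacetylated one. Among 21 developmental transcription factors 19 (90.5%, exact 95% CI 69.6 to 98.8%) and among 17 secreted developmental signals 16 (94.1%, 71.3 to 99.9%) did, as did 22 of 31 neuronal channels and receptors (71.0%), 16 of 21 HSC identity genes (76.2%, 52.8 to 91.8%) and all 7 protocadherins. Most genes of these lists had no promoter peak and are not counted. In full the lists held 217 developmental factors, 88 signals, 213 neuronal genes, 45 HSC identity genes and 69 protocadherins. Peaks of 5000 bp or more, which 11 HSC identity genes had, are also left out of these shares. At the other end were the proteasome with 0 of 31 genes, which allows a share of up to 11.2%, cytosolic ribosomal proteins with 2 of 69 (2.90%), aminoacyl-tRNA synthetases with 1 of 33, the respiratory chain with 4 of 76 (5.26%), DNA repair with 5 of 74 (6.76%), mitochondrial ribosomal proteins with 8 of 77 (10.4%) and DNA replication and cell cycle with 8 of 65 (12.3%). Cilium genes (31 of 81, 38.3%), germline genes (6 of 15), zinc finger genes (83 of 325, 25.5%) and mTOR pathway genes (9 of 40, 22.5%) had intervals that held the share of all genes, as did autophagy (5 of 35, 14.3%) and interferon response genes (6 of 39, 15.4%).

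**Figure D2:**
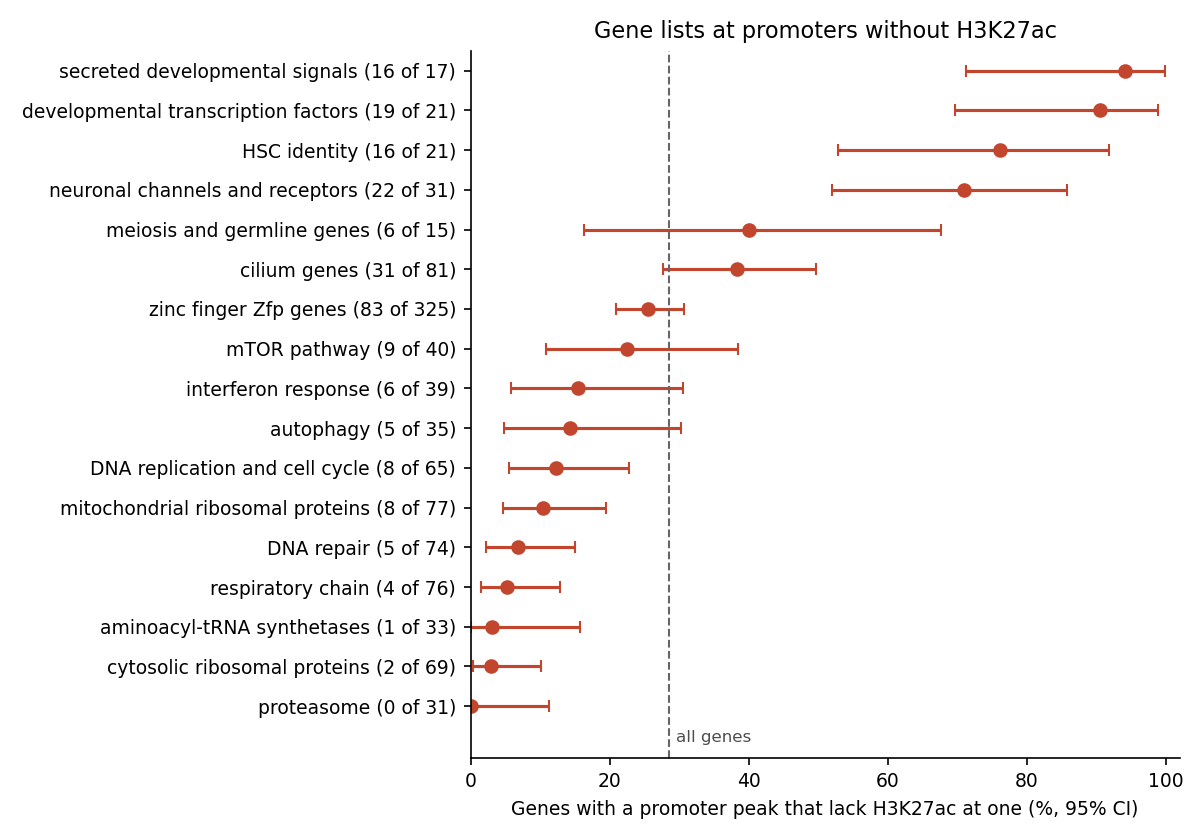
Percent of each list's genes with a promoter peak that had an unacetylated one (x axis, points, with exact 95% confidence intervals), for the lists with at least 10 such genes; counts are in the row labels. The dashed line is the share of all genes, 28.6%; 4 lists lie wholly to its right, and 7 lists from the proteasome to DNA replication and cell cycle lie wholly to its left.

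H3K4me3 score moved with these differences. Of the 19 unacetylated promoter peaks of developmental factors 18 were in the lowest score quartile, as were 16 of 17 of the signals and 12 of 16 of the HSC genes, and that quartile was 69.3% unacetylated overall. If each list's promoter peaks had been unacetylated at the rate of their own score quartile, developmental factors would have had 13.8 such peaks of 21 where 19 were found, and signals 12.8 of 19 where 17 were found. HSC genes would have had 11.1 of 21 where 16 were found, and neuronal channels and receptors 16.1 of 33 where 22 were found. In the reverse direction, DNA repair genes would have had 15.8 where 5 were found, cytosolic ribosomal proteins 6.31 where 2 were found and the proteasome 2.49 where none was found. The remainder of each difference was not tested.

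Developmental regulators had low H3K4me3 scores, and few of their peaks were open in all 6 ATAC-seq libraries. Eomes, a T-box factor of early embryo and lymphocytes, had the highest WT H3K4me3 score among those named (254.21; chromosome 9, 118476973 to 118478736). Its ATAC-seq scores were 140.47 and 183.8 in KO MycHet, no peak and 151.99 in KO, and no peak and 338.9 in WT. Foxd2, a forkhead factor (ID 17301; chromosome 4, 114907654 to 114910487), was the most open of those named, with 641.18 and 928.78 in KO MycHet, 227.13 and 827.8 in KO and 246.33 and 838.62 in WT. Tbx1, a T-box factor of the developing pharynx and heart, had no peak in KO MycHet, 150.35 in KO 2 alone and 53.89 and 84.65 in WT. Of the 19 peaks 13 and 13 were open in KO MycHet, 2 and 16 in KO and 3 and 16 in WT, and 1 was open in all 6 libraries. Of all unacetylated promoters 94.0% and 94.6% were open in KO MycHet, 61.0% and 96.9% in KO and 61.4% and 98.1% in WT, and 51.0% in all 6; the difference from them was not tested. Hoxa4 and Foxq1 completed those named, with WT H3K4me3 scores of 218.22 and 211.26.

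The signals also had low H3K4me3 scores. Dll1, a Notch ligand, scored 289.31 for H3K4me3 in WT, Sema3c, a guidance ligand, 185.08, Fgf3, a fibroblast growth factor, 182.15, Wnt2, a Wnt ligand, 176.54, Fst, the activin antagonist follistatin, 163.12, and Gdf11, a TGF-beta family ligand, 151.52. All 17 peaks of the signals list were open in KO 2 and in WT 2, where 96.9% and 98.1% of all unacetylated promoters were, and 4 were open in all 6 libraries, where 51.0% of them were.

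HSC identity genes, those used to define or mark HSC (by absence for Flt3 and Cd48), often had an unacetylated promoter. Besides Mllt3 (WT score 424.36; chromosome 4, 88030990 to 88035753; ID 70122) they included Gfi1b, a repressor of HSC and of red cell and platelet precursors (418.21), Ctnnal1, an alpha-catenin relative that marks HSC (364.65), Lmo2, a bridging protein of blood transcription factor complexes (313.05), Flt3, a cytokine receptor of early progenitors (236.04), and Fgd5 (233.02; chromosome 6, 91978361 to 91979962; ID 232237). The list also held 11 genes with an H3K4me3 peak of 5000 bp or more, of 33 with any in WT. Over all protein-coding genes these numbers were 642 of 11438. The width limit leaves such peaks out, so the share of 16 in 21 does not cover them, and their H3K27ac is not described here. The nearest H3K27ac peak was 58700 bp from the Mllt3 peak, 93496 bp from Fgd5, 6429 bp from Lmo2 and 2427 bp from Flt3. Of the 16 peaks 13 and 13 were open in KO MycHet, 7 and 15 in KO and 7 and 15 in WT, and 6 were open in all 6 libraries. In KO 2 and WT 2 these counts were close to the shares of all unacetylated promoters, 96.9% and 98.1%; those of the other libraries were 94.0% and 94.6% in KO MycHet, 61.0% in KO 1 and 61.4% in WT 1. Ctnnal1 had the highest ATAC-seq scores of those named, 649.23 and 801.93 in KO MycHet, 170.22 and 1167.45 in KO and 312.42 and 1224.42 in WT, while Lmo2 had 111.95 in KO MycHet 1 alone, 54.7 in KO 2 alone and 80.32 in WT 2 alone. None of the 16 overlapped a MYC peak in either genotype, where 10.8% of all unacetylated promoters did in KO and 3.71% in WT, so that a count of 0 among 16 is near the share of the whole set.

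H3K4me3 peaks of several HSC identity genes were narrower in KO, while most promoter peaks were wider. Across all unacetylated promoters the KO peak was a median of 1.24 times as wide as the WT peak, and across acetylated ones 1.23 times. A peak narrower in KO was found at 355 of 2776 unacetylated promoters (12.8%) and at 396 of 6580 acetylated ones (6.02%), and 8.03% of all 9356 were narrower. Of the 16 unacetylated HSC identity peaks 8 were narrower in KO, and of 5 acetylated ones 0 were. The stromal and endothelial markers gave a like count, with 3 of 6 unacetylated peaks narrower in KO (Tek, which is on both lists, Emcn and Cxcl12) and a median KO over WT ratio of 1.02, against 1.05 for the HSC identity peaks. The part of such cells in the HSC values was not tested. Esam, an adhesion molecule of HSC and endothelium, had a WT peak of 4477 bp that it shares with Msantd2. Over it lay 2 KO peaks, and the one with the largest overlap, counted here, was 2138 bp wide. The reach of the 2 together was not measured. Flt3 spanned 2458 bp in KO and 2946 bp in WT, and Robo4, a guidance receptor of endothelium and HSC, 818 bp in KO and 1370 bp in WT. Prdm16, Hoxb5, Pdzk1ip1, Tek and Procr were the other narrower ones. Outside the list, the narrowest in KO relative to WT were Clec12a, a lectin receptor of myeloid cells (976 bp in KO, 2981 bp in WT), Mmrn1, a protein of platelets and endothelium (1503 bp in KO, 3976 bp in WT), and Trpc6, a cation channel (1588 bp in KO, 3558 bp in WT). Some of these narrower KO peaks scored near 50, the floor of the list: Robo4 57.05, Hoxb5 54.48, Clec12a 56.58 and Mmrn1 50.61. The other narrower HSC identity peaks scored from 85.9 (Esam) to 176.08 (Prdm16) in KO, and Trpc6 scored 106.08. The part of low score in the width was not tested. Csf2rb2, a beta subunit of the interleukin-3 receptor, was among the most widened, with 4603 bp in KO and 896 bp in WT. Against these, Cd48 spanned 7053 bp in KO and 2591 bp in WT, and Mllt3 6117 bp in KO and 4764 bp in WT. The genes named in these sentences beyond the naming rule were chosen after their values were seen. The KO H3K4me3 list chose the peaks too and there was 1 library per genotype, so this is a description with no test, and a change in the cells sorted cannot be told apart from a change within cells.

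**Figure D3:**
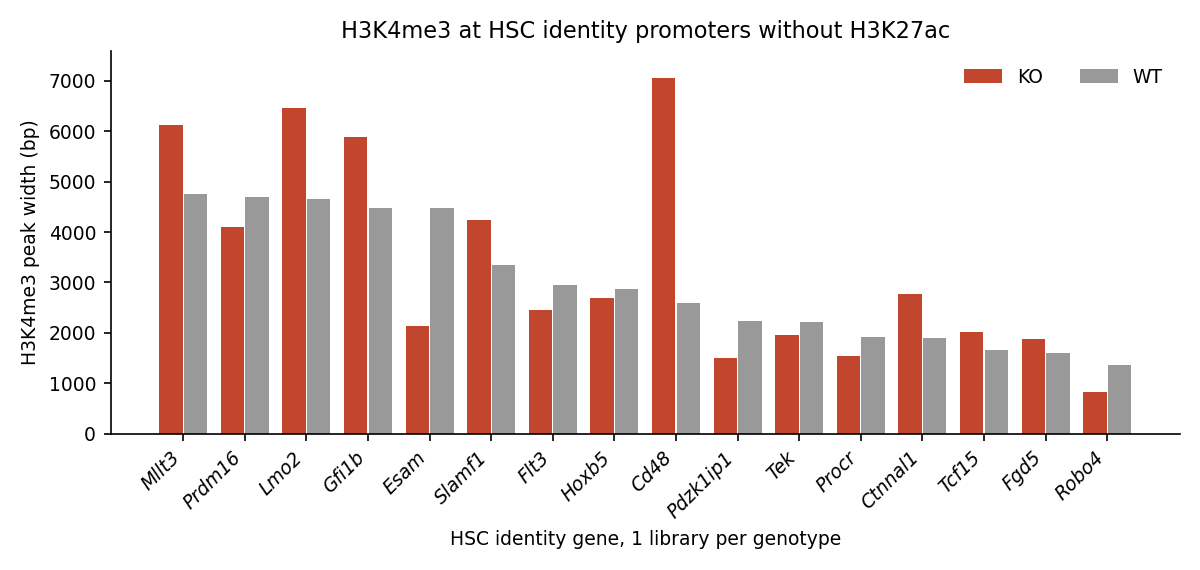
Width in bp (y axis) of the H3K4me3 peak at each of the 16 unacetylated HSC identity promoters (x axis, in order of WT width), with KO in red and WT in grey, 1 library each. The KO bar is the shorter one at 8 genes, among them Esam and Robo4, and the taller one at 8, among them Cd48. At Esam the KO bar is 1 of 2 KO peaks, the one with the largest overlap.

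Replication and cell cycle genes had 8 peaks in the set, with a median WT H3K4me3 score of 354, above the 209 of all unacetylated promoters. The median was 474 at the acetylated peaks of the list and 382 over all promoter peaks. Gins3, of the replicative helicase, scored 625.15, Plk1, a mitotic kinase, 600.29, Cdc6, a licensing factor, 430.16, and Ttk, a spindle checkpoint kinase, 373.57 in the WT H3K4me3 list. The lowest 2, named after their values were seen, were Gins2 (64.36) and E2f1 (57.22). Of the 8 peaks 7 were open in all 6 ATAC-seq libraries, where 51.0% of unacetylated promoters and 73.3% of all promoter peaks were. Ccnd1, cyclin D1, was open in 5, with low ATAC-seq scores of 78.68 and 83.28 in KO MycHet, 84.43 in KO 2 alone and 53.23 and 105.01 in WT. DNA repair genes included Rad54l (599.91) and the mismatch repair gene Msh6 (478.42). Interferon response genes included Oas1a, an antiviral enzyme (283.81), Irf8, a factor of myeloid and dendritic cells (170.04), and Rsad2, the antiviral protein viperin (79.86).

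Some genes of other cell types were in the set. The myeloid markers Lyz2 (WT score 216.23), Prtn3, a neutrophil protease (193.95), and Ctsg, another granule protease (178.14), were all 3 myeloid genes with a promoter peak and all were unacetylated. Of 7 stromal and endothelial markers 6 were unacetylated. Among them were Tek, the angiopoietin receptor also used as an HSC gene (200.55), Kdr, a VEGF receptor (139.84), and Cxcl12, the niche chemokine (65.67). Of these 6, 0 were open in all 6 ATAC-seq libraries, where 51.0% of all unacetylated promoters were. Of all genes with a promoter peak 28.6% had an unacetylated one. All 3 myeloid and these 6 peaks were in the lowest score quartile, which was 69.3% unacetylated. At the rates of their score quartiles, 2.08 of the 3 myeloid and 4.47 of the 7 stromal and endothelial peaks would have been unacetylated. No B cell (0 of 2), T and NK cell (0 of 1) or megakaryocyte marker (0 of 2) with a promoter peak was among the unacetylated promoters. Erythroid markers had 2 of 4 there. H3K4me3 at such genes in HSC and in a few other sorted cells cannot be told apart in bulk samples, nor can fewer marked cells and less mark per cell.

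Among mTOR pathway genes, the share of unacetylated promoters was near that of all genes (9 of 40, where 28.6% of all genes were unacetylated). Deptor, a protein that binds and inhibits mTOR, scored 557.97 in the WT H3K4me3 list, Ddit4, an inducer of mTORC1 inhibition under stress, 418.01, Sesn2, a leucine sensor that restrains mTORC1, 378.75, and Tsc1 367.27. Tsc2, its partner in the complex that switches off Rheb, scored 324.74 at a peak shared with Nthl1. Telo2, which helps to assemble mTOR complexes, scored 319.17. Castor1, an arginine sensor, its relative Castor2, and Rragd, a Rag GTPase, were the other 3 and were named after their values were seen. The other 31 genes of the list had acetylated promoters.

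The 2 cytosolic ribosomal protein genes in the set, Rplp0 and Rpl19, shared their peak with a neighbouring gene, Gcn1 and Cacnb1. The unacetylated peak there may belong to either gene, and 1 of the 2 ribosomal protein genes also had an acetylated promoter peak. At Rplp0 the unacetylated peak (chromosome 5, 115564311 to 115566574) lay outside the gene, whose upper end is at 115563729. In general 89.3% of unacetylated and 77.4% of acetylated peaks had a single gene in reach, and 3.49% and 10.2% had annotated starts on both strands, as in head-to-head gene pairs. Genes with only unacetylated promoters were longer, with a median of 31665 bp (95% CI 29739 to 34210 bp) against 20634 bp (19933 to 21369 bp). Chromosome X had 117 unacetylated peaks of 309 (37.9%, 95% CI 32.4 to 43.5%), the highest share of the 20 chromosomes.

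Unacetylated promoters were less often open than acetylated ones in each of the 6 ATAC-seq libraries. They overlapped an ATAC-seq peak at 94.0% and 94.6% in KO MycHet, 61.0% and 96.9% in KO and 61.4% and 98.1% in WT. Acetylated promoters did so at 99.1% and 99.3% in KO MycHet, 87.9% and 99.5% in KO and 88.4% and 99.6% in WT. All promoter peaks together were open at 97.6% and 97.9% in KO MycHet, 79.9% and 98.7% in KO and 80.4% and 99.2% in WT. The difference averaged -11.3 percentage points (SD 12.2, n = 6 libraries, range -27.0 to -1.53) and was below 0 in 6 of 6 (two-sided exact sign-flip test over libraries, p = 0.03125, the smallest that 6 libraries allow). The size of the gap depended on the library: it was -27.0 points in the short lists KO 1 and WT 1 and between -5.10 and -1.53 points in the other 4. Without those 2 libraries, an alternative chosen after seeing the data, it averaged -3.49 points (exact sign-flip p = 0.125, below 0 in all 4). With every ATAC-seq list cut by score to the length of the shortest, it averaged -25.3 points (exact sign-flip p = 0.03125). Unacetylated promoters were then open at 69.9% and 65.8% in KO MycHet, 56.5% and 63.9% in KO and 61.4% and 73.6% in WT. Acetylated ones were open at 93.0% and 92.5% in KO MycHet, 85.7% and 89.7% in KO and 88.4% and 93.7% in WT. Where an overlap had to cover 0.5 of the H3K4me3 peak, in choosing the sets and in calling them open, the sign turned and the difference was 6.66 points. In all 6 libraries at once, 1417 unacetylated promoters (51.0%, 95% CI 49.2 to 52.9%) and 5438 acetylated ones (82.6%) were open, against 73.3% of all promoter peaks.

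**Figure D4:**
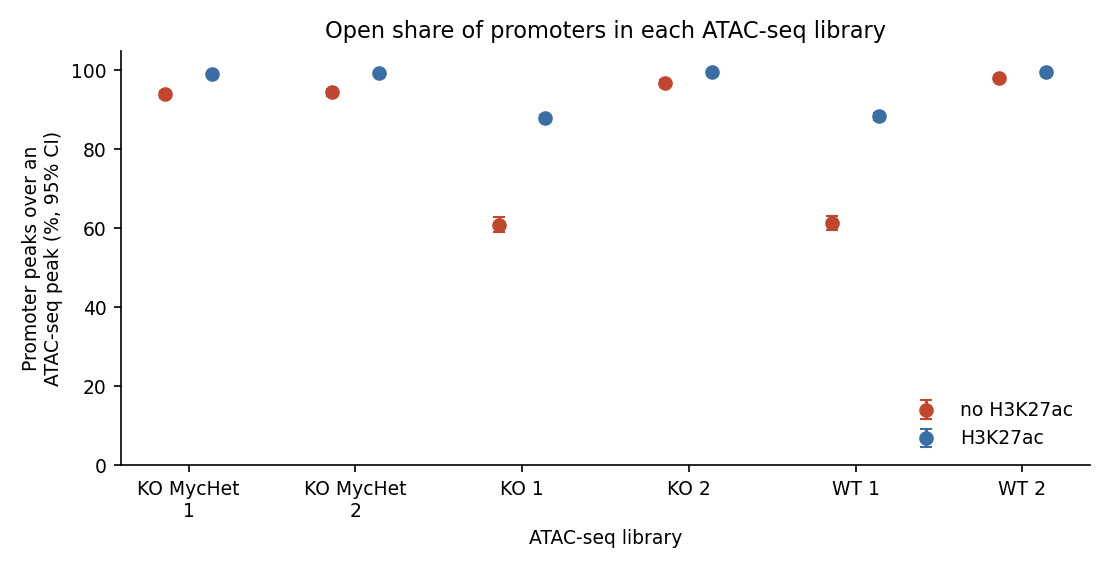
Percent of promoter peaks that overlapped an ATAC-seq peak (y axis) in each of the 6 libraries (x axis), with unacetylated promoters in red and acetylated ones in blue; bars are exact 95% confidence intervals for counting error. The red point lies below the blue one in every library, by the most in KO 1 and WT 1, whose lists are the shortest.

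Part of this gap moved with H3K4me3 score. Weighting acetylated promoters to the score quartiles of the unacetylated ones reduced the mean difference to -7.66 points, still below 0 in the exact sign-flip test over libraries (p = 0.03125). Within quartiles the mean difference was -10.0 points in the lowest (6 of 6 libraries below 0, exact sign-flip p = 0.03125), -4.91 in the second (4 of 6, p = 0.125), -3.70 in the third (5 of 6, p = 0.0625) and -1.92 in the highest (2 of 6, p = 0.5). In the highest quartile all 96 unacetylated promoters were open in KO 2, WT 2 and both KO MycHet libraries. A difference below 0 was not possible in those libraries, so the test there cannot decide. In KO 1 82.3% of unacetylated and 90.3% of acetylated promoters of that quartile were open, and in WT 1 86.5% and 90.9%. The unadjusted p passed 0.05 in the lowest quartile only, and the difference between quartiles was not tested. The 4 p-values adjusted together by the Benjamini-Hochberg method were 0.125, 0.167, 0.125 and 0.5 from the lowest to the highest quartile. Within quartiles of width the mean difference was -12.3, -5.98, -5.16 and -5.78 points from the narrowest to the widest, below 0 in 6 of 6 libraries in each (exact sign-flip p = 0.03125 before and after the same adjustment).

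Where unacetylated promoters were open, their ATAC-seq peaks scored lower. The median score at open unacetylated promoters was 297 and 323 in KO MycHet, 104 and 422 in KO and 111 and 511 in WT. At open acetylated promoters it was 525 and 596 in KO MycHet, 142 and 738 in KO and 150 and 838 in WT. The median was lower at unacetylated promoters in 6 of 6 libraries, with no overlap of the 95% CI of the medians in any library. Ripk2, an immune signalling kinase, had the highest score of all unacetylated promoters in KO 2, 2274.6, beside 836.76 in KO 1, 1037.29 and 1215.88 in KO MycHet and 891.88 and 1153.06 in WT; its nearest H3K27ac peak was 980 bp away. Ypel5 followed with 2078.14 in KO 2.

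A small group was closed throughout. No ATAC-seq peak of any library touched 39 unacetylated promoters (1.40%) and 15 acetylated ones (0.228%), 0.577% of all. Those with the highest WT H3K4me3 scores were Tigd4 (240.05), the MHC class I gene H2-Q10 (206.56), Prtn3 (193.95), Padi1, a peptidylarginine deiminase (175.19), and the pair Rilp and Scarf1 (167.72).

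A difference between genotypes in the openness of unacetylated promoters could not be resolved with 2 libraries each. The open share averaged 94.3% ± 0.382 in KO MycHet, 78.9% ± 25.4 in KO and 79.7% ± 26.0 in WT (SD, n = 2 libraries each). KO minus WT was -0.793 points (two-sided exact permutation test, p = 0.667) and KO MycHet minus KO 15.3 points (p = 1.0); the smallest p that 2 libraries against 2 allow is 0.333. The 2 KO libraries differed from each other by more than the genotypes did, and the library with the shorter list had the lower share. KO minus WT was 17.2 points without KO 1 and 17.6 without WT 2, and KO MycHet minus KO was -2.65 points without KO 1. No unacetylated promoter was open in both KO libraries and neither WT library (0.0107% of all promoter peaks), and 1 showed the reverse (also 0.0107% of all), Clec1a, a C-type lectin receptor, with ATAC-seq scores of 69.42 in KO MycHet 2 alone of its genotype, and of 61.68 and 123.6 in WT. Open in both KO MycHet and in neither KO library were 10 (0.360%), among them Esr2, an estrogen receptor, Hacd4, Pappa, Cd48 and Myof, against 0.128% of all promoter peaks; each of these 5 was also open in WT 2. Slc6a20a alone was open in both KO and neither KO MycHet library, which 0.0214% of all promoter peaks were.

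MYC, the transcription factor profiled beside the marks, was found at far fewer unacetylated promoters in both genotypes. In KO 299 of 2776 (10.8%, 95% CI 9.64 to 12.0%) overlapped a MYC peak, against 47.5% (46.3 to 48.7%) of acetylated promoters and 36.6% of all promoter peaks. In WT 3.71% (3.04 to 4.48%) did, against 21.8% (20.8 to 22.8%) of acetylated promoters and 16.4% of all. Acetylated promoters thus had MYC 4.41 times as often in KO and 5.87 times as often in WT. Peaks in both genotypes were at 58 unacetylated promoters (2.09%, 12.9% of all promoter peaks), in KO only at 241 (8.68%, 23.7% of all) and in WT only at 45 (1.62%, 3.54% of all). With 1 MYC library per genotype there is no test, and the intervals cover counting error only. The KO MYC list was the longer one. When it was shortened to the length of the WT list by score, 3.64% of unacetylated promoters overlapped a MYC peak in KO, against 3.71% in WT. Of acetylated promoters 24.3% in KO and 21.8% in WT then did. The shares also followed the choice of H3K27ac list: among the 7058 promoters that lacked a WT H3K27ac peak, whatever the KO list held, MYC was at 27.9% in KO and 9.89% in WT. Among promoters with a WT H3K27ac peak MYC was at 63.5% in KO and 36.5% in WT.

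The gap was present in each quartile of H3K4me3 score and among promoters open in every library. From the lowest to the highest score quartile, MYC in KO was at 7.04%, 14.3%, 20.1% and 14.6% of unacetylated promoters and at 34.8%, 43.4%, 47.5% and 54.6% of acetylated ones. In WT it was at 1.98%, 4.92%, 8.54% and 7.29% of unacetylated and at 17.9%, 18.2%, 21.1% and 26.2% of acetylated promoters. The intervals of the 2 sets did not overlap in any quartile of either genotype. Among promoters open in all 6 ATAC-seq libraries, MYC in either genotype was at 242 of 1417 unacetylated (17.1%) and at 3033 of 5438 acetylated ones (55.8%), with intervals that did not overlap; the ATAC-seq scores of open promoters still differed between the sets, as given above. Within the acetylated promoters MYC in KO was at 1434 of 2220 acetylated in both genotypes and at 1668 of 4282 acetylated in KO only.

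**Figure D5:**
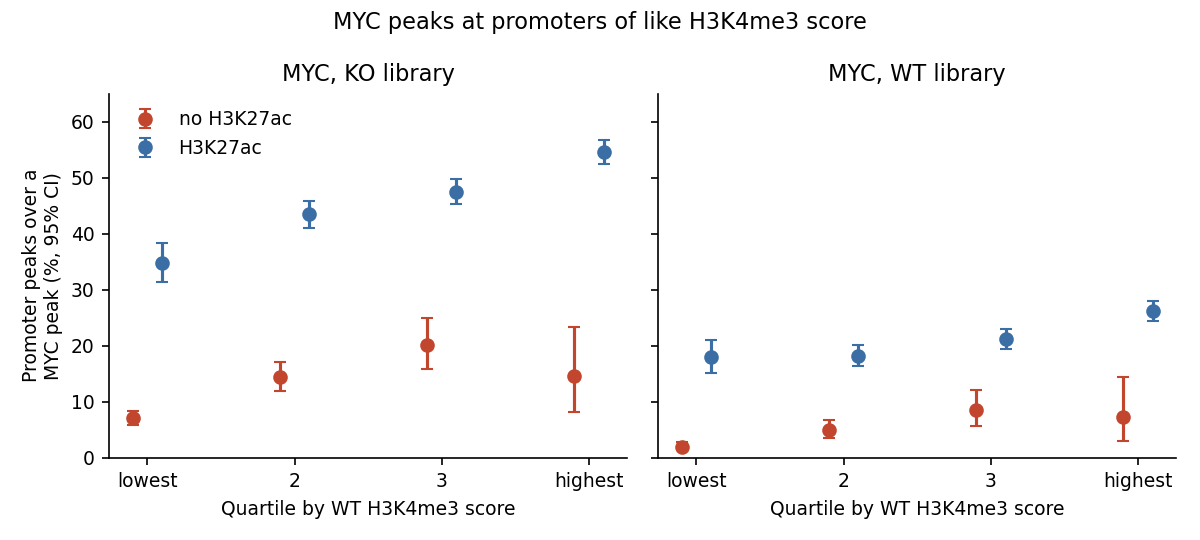
Percent of promoter peaks that overlapped a MYC peak (y axis) in the KO library (left) and the WT library (right), by quartile of WT H3K4me3 score (x axis); unacetylated promoters are red, acetylated ones blue, and bars are exact 95% confidence intervals. Unacetylated promoters lie between 7.04% and 20.1% in KO and between 1.98% and 8.54% in WT, below acetylated promoters of the same quartile throughout.

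Among unacetylated promoters with MYC, those with the highest MYC scores and 2 mTOR pathway genes are described. With MYC in KO only, Mknk2, the kinase MNK2 that phosphorylates the cap-binding factor eIF4E, scored highest at 250.65 (ID 17347; chromosome 10, 80673438 to 80676448), with an H3K27ac peak 165 bp away. Stc2, a secreted glycoprotein induced by stress (214.03), and Ddit4 (89.37) were others with MYC in KO only. In both genotypes MYC was at Ypel5 (219.02 in KO, 62.74 in WT), Atf3, a stress-induced transcription factor (205.04 in KO, 59.32 in WT), Numb, an inhibitor of Notch (183.46 in KO, 141.72 in WT), and Tsc1 (166.51 in KO, 51.0 in WT). Tas2r134, a taste receptor gene, carried MYC in both (230.36 in KO, 183.34 in WT) with no ATAC-seq peak in any of the 6 libraries. Mfap3l (119.09) and the pair Parp3 and Rrp9 (111.55) had MYC in WT only.

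The DNA of unacetylated promoters differed from that of acetylated ones in several motifs. A start annotated in RefSeq lay within 1 kb of 2068 unacetylated and 5325 acetylated peaks, 92.9% and 96.4% of the peaks whose genes are in the table. In the 250 bases before it, the median G+C content of unacetylated promoters was 62.8% (95% CI 62.4 to 63.6%), above that of all promoter peaks with a start (60.8%, 60.8 to 61.2%). The CpG ratio had a median of 0.709 (0.697 to 0.723) against 0.777 (0.771 to 0.784) at acetylated promoters. At like H3K4me3 score the direction was not constant: in the lowest score quartile the ratio was higher at unacetylated promoters, 0.680 (0.667 to 0.701) against 0.645 (0.621 to 0.665). In the upper 3 quartiles it was 0.715 against 0.758, 0.760 against 0.794 and 0.791 against 0.806, with intervals that overlapped in each. A CpG ratio of at least 0.6 with a G+C content of at least 50% was met by 65.3% (63.2 to 67.4%) of unacetylated and 71.4% (70.1 to 72.6%) of acetylated promoters. The stretches of Mllt3 and Fgd5 printed above meet it and that of Lyz2 does not.

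The ETS motif CCGGAAG, marked above in Fam102b and Rps6, was in 166 of 2068 unacetylated promoters (8.03%, 95% CI 6.89 to 9.28%) against 18.5% (17.5 to 19.6%) of acetylated ones, and in 6.96% of all 32619 stretches of the table. Of 12 motifs searched on both strands, those of YY1, CRE, NRF1, ZNF143 and NFY were rarer too, with intervals that did not overlap. YY1 (AAGATGGCG) was at 0.242% against 1.46%, CRE (TGACGTCA) at 1.21% against 3.64%, NRF1 at 1.02% against 2.25% and ZNF143 (ACTACAA) at 2.66% against 4.75%. CCAAT of NFY was at 34.1% against 38.2%. Over all stretches of the table YY1 was at 0.607%, CRE at 1.56%, NRF1 at 0.788% and ZNF143 at 2.83%. The GC box GGGCGG, bound by SP and KLF factors, was the 1 motif in the other direction, at 67.6% (65.6 to 69.7%) against 62.1% (60.8 to 63.4%) and at 33.0% of all stretches. The intervals overlapped for AGATAA of GATA factors (4.98% against 4.88%), TGTGGT of RUNX factors (9.14% against 10.4%), TGANTCA of AP-1 (3.14% against 3.42%) and TATAAA (5.85% against 5.33%).

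The E-box CACGTG, the site MYC and MAX prefer, was about as frequent in both sets. It was in 8.61% (7.43 to 9.90%) of unacetylated and 8.79% (8.04 to 9.58%) of acetylated promoters, and in 6.06% of all stretches. MYC in KO was at 28 of 178 unacetylated promoters with an E-box (15.7%, 10.7 to 21.9%) and at 206 of 1890 without one (10.9%, 9.53 to 12.4%), so a difference was not resolved at this number. CpG-rich unacetylated promoters had MYC in KO at 13.0% (11.2 to 14.9%) and the others at 8.23% (6.32 to 10.5%). Acetylated promoters differed in the same direction, with 51.9% of the CpG-rich ones and 41.0% of the others. The CpG-rich unacetylated promoters were open at 96.7% and 97.3% in KO MycHet, 68.5% and 99.2% in KO and 70.1% and 99.6% in WT. Unacetylated promoters that were not CpG-rich were open at 91.8% and 91.8% in KO MycHet, 51.2% and 95.1% in KO and 50.2% and 97.2% in WT. The CpG-rich ones were the more open in 6 of 6 libraries, and this difference was not tested. The same direction held at acetylated promoters in each library, with 92.0% against 81.1% in KO 1 and 92.3% against 80.6% in WT 1.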

How the data were processed

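The members and gene lists were chosen with earlier results of these data known. The files are peak lists called per sample, with positions on mm10 and 1 score per peak that the authors deposited; every listed score was at least 50, and the scale is not stated. Per the submitters' processing notes the series used CASAVA, TopHat and Cufflinks and the build mm10; the aligner of these libraries, the peak caller and its settings and any input control were not given in the sources used here. Depth is unknown, and how deeply a library was sequenced can change how many peaks were called.

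The 12 lists were restricted to chromosomes 1 to 19 and X, and no 2 lists were identical. The 8 RNA-seq samples were not analysed here. A promoter peak lay within 1 kb of either end of a RefSeq protein-coding gene, since the gene table used gives no strand. Overlap meant at least 1 bp, which was tested on simulated data and checked with bedtools 2.31.1, with equal counts for all 12 lists. Shares have exact (Clopper-Pearson) 95% intervals for counting error only; peaks of 1 library are not replicates. Openness was compared over libraries by exact sign-flip and permutation tests, which measure the spread between these libraries and may be technical. Upstream sequence came from RefSeq (GRCm38.p6). Analyses used Python 3.11.15, numpy 2.4.6, pandas 2.3.3, scipy 1.17.1 and matplotlib 3.10.9.

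Genes named were the members with the highest WT H3K4me3 score, ATAC-seq KO 2 score or MYC score, those nearest each limit, those closed throughout or open by genotype, those with the most changed width, and up to 6 per gene list by WT H3K4me3 score; any other gene is marked in the text as picked with its values in view. Alternatives changed the window, the width and score limits, the overlap, the H3K27ac, ATAC-seq and MYC lists and the libraries included.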

Additional observations from a re-analysis of the deposited data

How the results depend on the processing

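Of 91 alternative values, 60 kept their direction and stayed near the main value or on the same side of the threshold, 20 moved, 7 lost the threshold and 4 reversed. The 2776 unacetylated promoters became 7058 with the WT H3K27ac list alone, 1583 under 2000 bp, 840 at or above the median score and 5049 where an overlap had to cover 0.5 of the peak. MYC in KO and in WT was then at 27.9% and 9.89%, 7.52% and 2.27%, 16.8% and 6.55%, and 0.515% and 0.0396% of them. With the KO H3K27ac list shortened to the WT number MYC was at 16.0% in KO and 5.65% in WT, and with the KO MYC list shortened it was at 3.64% in KO. In each of these settings MYC was more frequent at the acetylated promoters. Where an overlap had to cover 0.5 of the peak, it was at 3.05% of them in KO and 0.280% in WT. Weighted to score quartiles, the difference in MYC from acetylated promoters was -28.5 points in KO and -15.0 in WT. The openness difference turned to 6.66 points (exact sign-flip p = 0.03125) under overlap of 0.5 of the peak; the cause was not tested. It ranged from -13.3 to -8.19 points with 1 library left out, where the smallest possible p is 0.0625, and was -3.49 points (exact p = 0.125) without KO 1 and WT 1, an alternative chosen after seeing the data. With every ATAC-seq list cut to the length of the shortest it was -25.3 points (exact sign-flip p = 0.03125). KO minus WT in openness ranged from -19.1 to 17.6 points with 1 library left out, turning positive without KO 1 (17.2) or WT 2 (17.6), and KO MycHet minus KO from -2.65 to 33.3, turning negative without KO 1 (-2.65). With a replicate block these were -0.793 (exact p = 0.5) and 15.3 (p = 1.0); the labels do not say that the numbers pair the libraries, and deviations of same-numbered libraries correlated at 0.457 for KO with WT and 0.00988 for KO MycHet with KO. With a window of 2.5 kb the unacetylated genes numbered 2 olfactory receptors, 2 aminoacyl-tRNA synthetases and 1 T and NK cell marker. The short WT H3K27ac list and the unknown depth limit what the absence of a peak shows: a weak mark below the caller's threshold was not detectable, and 1 ChIP-seq library per mark and genotype allows no test.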
